A study of Mus musculus with 8 samples.

Results

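Mdm4 is the gene described here, in hepatic stellate cells with and without the ubiquitin ligase AREL1. It was the 1 gene found of a set of 10 that holds p53, its inhibitors and p53 targets, and it is 1 of 1933 gene rows shared by the 8 tables. The set was chosen by gene symbol: Trp53, the inhibitors Mdm2 and Mdm4, and the targets Cdkn1a, Ccng1, Sesn1, Sesn2, Zmat3, Phlda3 and Trp53inp1. The 9 genes other than Mdm4 were not analysed here, so the levels of p53 itself, of Mdm2 and of p21 (Cdkn1a) are unknown in what follows. The rows lie on chromosome 1 where they have a symbol. Beside Mdm4, 12 further genes from lists of the p53 pathway are in the rows and are reported below.

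Hepatic stellate cells are liver cells that store vitamin A and become matrix-producing myofibroblasts in fibrosis. AREL1, a HECT-type ligase, is known as an inhibitor of apoptosis. The control group carried the floxed allele (AREL1fl/fl, fl/fl below) and the other group a deletion of AREL1 in stellate cells (AREL1HSC-KO, KO below), with 4 libraries each. All animals were male, were 4 weeks old when a Western diet (21% fat, 20% protein, 50% carbohydrate) began, ate it for 20 weeks and were killed in week 24, with a liver labelled MASH, metabolic dysfunction-associated steatohepatitis. Which Cre line made the deletion is not given in the labels used here. For 3 KO libraries the genotype field has a different digit after AREL than the title, and the title was followed. Nothing in the labels ties each library to its own mouse. The p-values therefore reflect library-to-library spread, part or all of which may be technical.

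MDM4, also called MDMX, binds the transactivation domain of p53 and keeps it from switching on its targets. It has little ubiquitin ligase activity of its own and pairs through its RING domain with MDM2, the ligase that sends p53 for degradation and is itself a p53 target. Active p53 raises genes of growth arrest, DNA repair, apoptosis and metabolism, and through p21 and the DREAM complex it lowers cell cycle genes. In the liver, p53-dependent senescence of activated stellate cells is known to limit fibrosis in mice.

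RefSeq places 2 starts of Mdm4 on the minus strand of chromosome 1, 5171 bases apart. The 250 bases before each start are shown because the count of the gene adds up transcripts from both. They are given 5′ to 3′ on the gene's strand, from RefSeq's GRCm38.p6 table, and neither overlaps an exon in the GENCODE M21 annotation. The upstream window is chr1:133030588-133030837 and the downstream window chr1:133025417-133025666. The third sequence is the window of Ier5 (chr1:155099637-155099886, minus strand), the p53 target described below that was lower in KO. It is printed for that reason and because its window holds a match to the motif described next. Capitals mark a match to the p53 half-site consensus, a 10-base motif that reads alike on both strands.
Mdm4 upstream start: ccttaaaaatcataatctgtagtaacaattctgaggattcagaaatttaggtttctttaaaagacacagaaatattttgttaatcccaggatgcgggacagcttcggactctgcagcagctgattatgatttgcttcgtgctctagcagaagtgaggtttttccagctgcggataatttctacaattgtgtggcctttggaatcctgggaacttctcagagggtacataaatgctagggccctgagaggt
Mdm4 downstream start: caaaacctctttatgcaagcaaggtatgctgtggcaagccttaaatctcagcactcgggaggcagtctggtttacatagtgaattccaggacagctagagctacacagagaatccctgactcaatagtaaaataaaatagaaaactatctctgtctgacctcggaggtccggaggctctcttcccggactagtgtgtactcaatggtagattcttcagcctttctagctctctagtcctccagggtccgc
Ier5 start: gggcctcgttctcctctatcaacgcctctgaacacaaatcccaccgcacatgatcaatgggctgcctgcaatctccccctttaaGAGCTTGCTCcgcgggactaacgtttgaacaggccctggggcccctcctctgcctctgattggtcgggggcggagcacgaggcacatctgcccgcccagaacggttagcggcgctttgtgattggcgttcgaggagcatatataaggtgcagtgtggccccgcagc
Neither Mdm4 window holds a half-site or the letters CATG, a core that the consensus allows among others. The Ier5 window holds 1 half-site, with another core, and 1 CATG outside it. Of 32851 windows of this length in the table, 7.126% hold a half-site and 53.95% hold CATG. Of the 13 genes described here (Mdm4 and the 12 pathway genes), Ier5 alone had a half-site in its window. None had 2 half-sites with at most 13 bases between them, as 0.064% of all windows do. A match is a description of letters, and its absence says only that the letters are not in this window.

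The libraries held 17619387 to 19663030 gene-assigned reads in fl/fl and 19271004 to 25165289 in KO, as derived from the summary counts. Of 420 genes with enough reads to test, 158 (37.6%) passed the test between the genotypes (edgeR quasi-likelihood F test at an adjusted p below 0.05). Of all tested, 77 (18.3%) rose and 81 (19.3%) fell in KO. The share higher, 48.7%, became 69.8% with upper-quartile scaling and 60.6% with library totals alone. As a whole library, fl/fl replicate 4 stood apart. A chi-square of the counts of the tested genes gave 3.37 to 3.46 per degree of freedom between it and the other fl/fl libraries, and 1.39 to 1.87 among those others. It was also nearer to the KO libraries (4.34 to 5.47) than they were (8.53 to 12.8). Results without this library are given beside the genes they concern and near the end. Arel1 itself, on chromosome 12, was not analysed here, so the deletion was not checked. None of the 15 stellate cell markers listed was in the rows, and the label was not checked on them. Of 41 listed markers of other cell types 5 were in the rows: the hepatocyte gene Serpinc1 reached at most 0.662 CPM (read counts per library total, adjusted by the TMM scaling factor), the leukocyte genes Cr2 and Xcl1 had 5 and 0 reads in fl/fl and 2 and 0 in KO, and the cholangiocyte gene Pkhd1 had 1 read in all. Cd34 was the 1 gene in the rows of 6 listed for portal fibroblasts and mesothelium. It ranged from 79.4 to 86.2 CPM in the controls and from 83.4 to 87.3 CPM in KO, and these ranges overlap. Which cells it came from was not tested, and none of the 7 listed endothelial markers was in the rows.

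Mdm4 (ENSMUSG00000054387) was lower in KO. In the fl/fl libraries its level was 166, 172, 164 and 155 CPM in replicates 1 to 4. In the KO libraries it was 132, 139, 140.1 and 137 CPM. Every KO library lay below every fl/fl library, and the lowest fl/fl value was that of replicate 4. The groups did not overlap in 31.4% of the genes tested, and 16.7% did so with the lower values in KO. The mean fell by 16.7%, from 164 ± 6.91 to 137 ± 3.36 CPM (SD, n = 4 libraries each). The log2 fold change was -0.26 (SE 0.030, 95% interval of the change -20.1% to -13.0%, edgeR adjusted p = 5.26e-08). In bulk RNA, less Mdm4 RNA per cell and fewer cells that make it cannot be told apart.

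**Figure D1:**
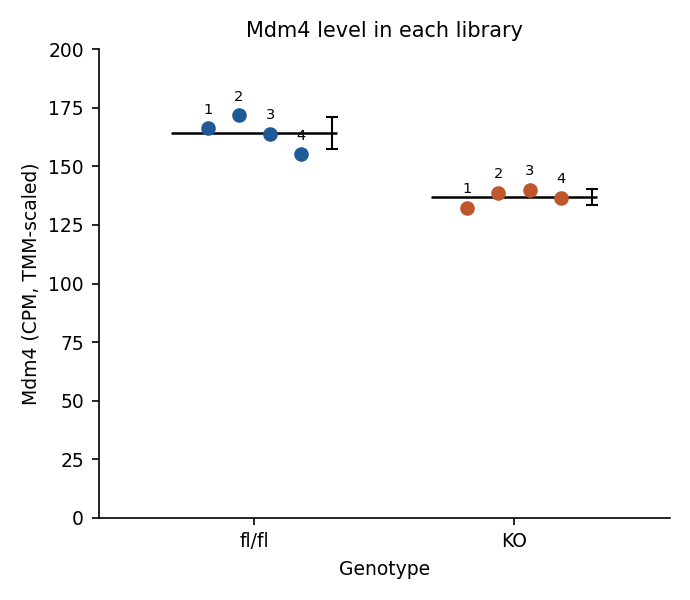
Mdm4 level (CPM scaled by TMM, axis from 0) in each of the 8 libraries, with the replicate number above each point, the group mean as a line and 1 SD as a bar. The fl/fl libraries sit between 155 and 172 CPM and the KO libraries between 132 and 140.1 CPM.

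These values rest on many reads. For fl/fl, 2712 to 3231 reads per library fell on Mdm4, and for KO 2665 to 3561, although the KO libraries were on the whole deeper. Counting error alone is then 1.68% to 1.94% of a library's value. The coefficient of variation between libraries was 4.2% in fl/fl and 2.46% in KO. Both values were above counting error, in KO by little, and the excess was not tested. The drop between genotypes was larger than both coefficients.

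No exon of another gene overlaps Mdm4 in GENCODE M21. The reads of its forward and reverse columns added up to its either-strand count in each of the 8 libraries, a difference of 0%, so no read was lost to a gene on the opposite strand. The drop was also seen in each column alone. The log2 fold change was -0.28 in forward-strand reads (SE 0.039, edgeR adjusted p = 9.81e-08) and -0.25 in reverse-strand reads (SE 0.038, edgeR adjusted p = 2.23e-09). These p-values come from separate fits, each with its own variance estimate, and are not comparable in size. GENCODE M21 lists 14 transcripts of the gene. Of these, 5 are protein-coding, 2 are targets of nonsense-mediated decay, 5 retain an intron and 2 are other processed transcripts. A count per gene sums over them, so full-length Mdm4 and its exon-skipped short form were not measured apart.

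Among the 420 genes, Mdm4 ranked 48 by mean level and 13 by p-value. Its change was moderate in size: 25 of the 81 genes called lower fell further, and the median absolute log2 fold change of those 81 was 0.195. The plot of all genes tested shows Mdm4 below 0 among the well-expressed genes.

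**Figure D2:**
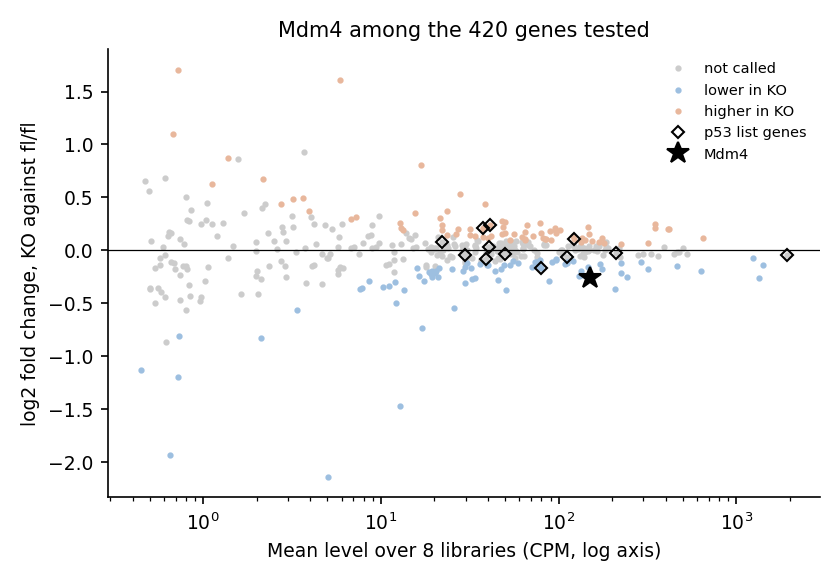
Log2 fold change (KO against fl/fl) against mean level (CPM, log axis) for the 420 genes tested, coloured by call, with Mdm4 as a star and the 12 p53 pathway genes as open diamonds. Mdm4 lies at -0.26, lower than each of the 12.

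The nearest tested protein-coding genes on the chromosome did not pass the test. On one side, Nucks1, which encodes a nuclear DNA-binding protein, had means of 477 (fl/fl) and 471 CPM (KO; log2 fold change -0.020, SE 0.025), and Tmem81, a membrane protein gene, at 7.66 and 7.44 CPM. On the other side, Pik3c2b, a class II phosphoinositide 3-kinase gene, stood at 3.37 and 3.32 CPM. Ppp1r15b, whose product helps to dephosphorylate the translation factor eIF2α, stood at 189 and 192 CPM (log2 fold change 0.019, SE 0.026). For Nucks1 and Ppp1r15b the 95% intervals, -4.79% to 2.23% and -2.26% to 5.10%, leave out a fall of the size seen in Mdm4. For the sparser Pik3c2b the interval, -18.9% to 21.1%, does not. For Tmem81, also sparse, the interval of -14.4% to 10.9% overlaps that of Mdm4 itself, -20.1% to -13.0%. These neighbours were chosen by position after the value of Mdm4 was known, and the difference between them and Mdm4 was not tested.

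The other p53 pathway genes come from lists of regulators and of targets, of which 12 genes were in the rows and all 12 were kept for the test. Of these, 3 rose, 1 fell and 8 did not pass the test (edgeR, adjusted p under 0.05). That is 4 of 12, beside 37.6% of all genes. The median log2 fold change of the 12 was -0.030, and over the 420 genes it was 0.0034. With upper-quartile scaling these medians were 0.022 and 0.055. The lists are small remnants, 5 of 53 regulators and 7 of 83 targets, and none of the 15 listed apoptosis targets was in the rows.

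Of the 5 regulators and partners of p53, 0 passed the test with edgeR, beside 37.6% of all genes, and 0 passed with DESeq2. With edgeR 1 of them, Ncl, had an unadjusted p under 0.05. Cop1 encodes an E3 ligase that, like MDM2, ubiquitinates p53, and it averaged 114 ± 4.24 CPM in the controls and 109 ± 3.35 in KO (log2 fold change -0.063, edgeR adjusted p = 0.119). Its values ranged from 111 to 120.2 CPM in fl/fl and from 105.1 to 113 CPM in KO, so the groups overlapped. Without fl/fl replicate 4 Cop1 passed (log2 fold change -0.070, edgeR adjusted p = 0.0403, over a range of 0.0403 to 0.784 in the alternatives). Ncl, whose product nucleolin can bind MDM2 under stress, stood at 1968 ± 47.9 and 1906 ± 35.2 CPM (log2 fold change -0.046, edgeR adjusted p = 0.0895). Ncl passed without fl/fl replicate 3 (edgeR adjusted p = 0.0416) and without fl/fl replicate 4 (edgeR adjusted p = 0.0417), and with upper-quartile scaling its log2 fold change was 0.0050. In GENCODE M21, Snora75, another small RNA gene and a microRNA gene lie on the exons of Ncl.

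The remaining 3 regulators showed small differences. Parp1, the poly(ADP-ribose) polymerase of DNA damage signalling, averaged 211 ± 3.10 CPM in the controls and 208 ± 2.44 in KO, with a 95% interval of the change of -5.08% to 1.75%. Smyd2, which encodes a lysine methyltransferase that restrains p53, stood at 50.6 ± 1.30 and 49.6 ± 3.80 CPM (interval -8.57% to 4.31%). Trp53bp2 encodes ASPP2, a partner that steers p53 to apoptosis genes, and stood at 40.0 ± 1.86 and 40.9 ± 2.46 CPM (interval -3.98% to 9.49%). Of the 3 genes described here as restraining p53, Mdm4, Cop1 and Smyd2, 1 passed the test, Mdm4, beside 37.6% of all genes. Cop1 passed as well without fl/fl replicate 4. The rows were not searched for such genes beyond the lists. Whether the change of Mdm4 differs from that of Cop1 or Smyd2 was not tested.

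Of the 7 p53 targets, 3 rose, 1 fell and 3 did not pass. Among all genes tested 18.3% rose and 19.3% fell, and the difference between targets and regulators was not tested. Atf3, a stress-induced transcription factor, had levels of 40.1, 35.7, 33.9 and 41.5 CPM in fl/fl replicates 1 to 4. In KO replicates 1 to 4 it had 45.5, 42.7, 44.4 and 46.4 CPM. The groups did not overlap, but fl/fl replicate 4 and KO replicate 2 came close. Atf3 rose by 18.0% (log2 fold change 0.24, SE 0.052, edgeR adjusted p = 0.000913).

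Ercc5 encodes XPG, an endonuclease of nucleotide excision repair. Its levels were 34.7, 35.3, 32.5 and 37.0 CPM in fl/fl replicates 1 to 4 and 39.0, 40.9, 41.7 and 39.3 CPM in KO replicates 1 to 4. All KO libraries were above all fl/fl libraries, and fl/fl replicate 4 was the nearest to them. Ercc5 rose by 15.4% (log2 fold change 0.21, SE 0.045, edgeR adjusted p = 0.000624).

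Ptpn14 encodes a phosphatase that restrains YAP. It was at 111, 116, 116 and 126 CPM in fl/fl replicates 1 to 4 and at 130.1, 128, 121 and 123 CPM in KO replicates 1 to 4. The groups overlapped through fl/fl replicate 4. The rise of 7.51% passed (edgeR adjusted p = 0.0136), and was lost without fl/fl replicate 1 (0.0986), with forward-strand counts (0.0695), without KO replicate 1 (0.0595) and without KO replicate 2 (0.0690), within a range of 1.07e-05 to 0.0986. Gm26574 overlaps it on the opposite strand in GENCODE M21, so its count is uncertain.

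Ier5, an immediate early gene that takes part in the heat shock response, went the other way. It was at 84.9, 83.7, 89.1 and 77.0 CPM in fl/fl replicates 1 to 4 and at 76.5, 72.5, 73.5 and 76.1 CPM in KO replicates 1 to 4. The groups did not overlap, although fl/fl replicate 4 was only just above KO replicate 1. Ier5 fell by 10.8% (log2 fold change -0.17, SE 0.037, edgeR adjusted p = 0.000988). Its start window, printed above, holds 1 p53 half-site, as 7.126% of all windows hold at least 1. Whether the half-site bears on the level of Ier5 was not tested.

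The 3 targets that did not pass were Ephx1, Slc19a2 and Inpp1. Ephx1, a microsomal epoxide hydrolase, averaged 40.4 ± 3.15 CPM in the controls and 38.0 ± 2.02 in KO (edgeR adjusted p = 0.204). Slc19a2, a thiamine transporter, stood at 30.1 ± 0.918 and 29.3 ± 1.31 CPM (edgeR adjusted p = 0.476). Inpp1, an inositol phosphatase, stood at 21.5 ± 0.896 and 22.8 ± 0.408 CPM (edgeR adjusted p = 0.237). Its groups did not overlap, at 20.2 to 22.2 and 22.4 to 23.3 CPM, but its change did not pass the test.

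**Figure D3:**
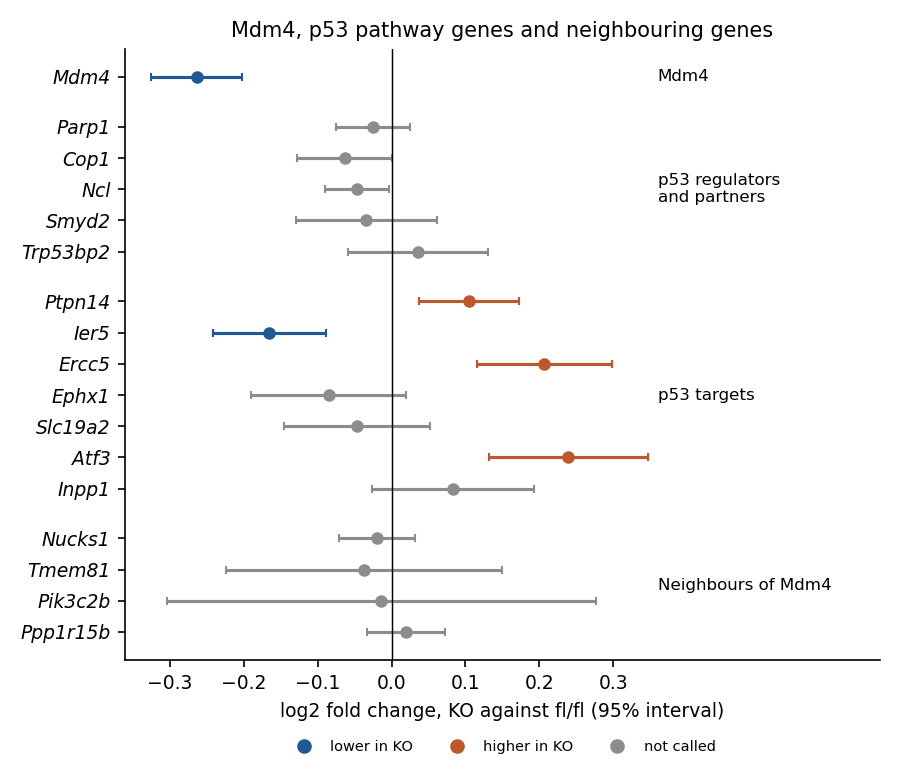
Log2 fold changes (KO against fl/fl) with 95% intervals for Mdm4, the 5 regulators and 7 targets of p53, and the 4 neighbouring genes. Mdm4 at -0.26 and Ier5 at -0.17 are the genes called lower, and Atf3, Ercc5 and Ptpn14 those called higher.

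Compared per kilobase of annotated exon, Mdm4 was expressed at 11.1 CPM per kb in fl/fl and 9.26 in KO. Ncl (193 CPM per kb in fl/fl) and Parp1 (39.9) were well above it, Smyd2 (18.6) somewhat above, and Trp53bp2 (9.05) and Cop1 (6.51) below. Among the targets, Ier5 (25.5), Ephx1 (20.7) and Atf3 (17.6) were above Mdm4 and Ptpn14 (8.73), Slc19a2 (7.86), Ercc5 (5.94) and Inpp1 (3.33) below. In fl/fl Mdm4 was thus above Trp53bp2 in this order, while in KO the 2 stood at 9.26 and 9.27. The length is the union of all exons in GENCODE M21, 14798 bases for Mdm4, and understates the level of genes whose long forms are little used.

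Cell cycle genes that p53 lowers through p21 and DREAM were counted as a further list. Of 47 listed genes 11 were in the rows, and 4 rose, 4 fell and 3 did not pass, beside 37.6% called among all genes. Their median log2 fold change was 0.046. The best expressed were Mcm6, higher by 15.1% (389 ± 13.2 CPM in fl/fl, 447 ± 4.52 CPM in KO, edgeR adjusted p = 1.06e-07), and Mcm3, higher by 15.3% (381 ± 15.1 and 439 ± 10.4 CPM, edgeR adjusted p = 3.68e-07), both subunits of the replicative helicase. Cenpf, a kinetochore protein gene, dropped by 11.5% (185 ± 3.60 CPM in fl/fl, 164 ± 2.01 CPM in KO, edgeR adjusted p = 3.38e-06). The other genes that rose were Orc2, of the origin recognition complex, and Exo1, an exonuclease of DNA repair. The other genes that fell were the mitotic kinase gene Nek2, the centromere gene Cenpl and Sgo2a, which protects cohesion at centromeres. These 5 genes are named after their values were seen, except that Cenpl also comes up by its pattern.

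The genes whose pattern over the 8 libraries was most like that of Mdm4 were Hspd1, Itm2c and Cenpl. Likeness was measured as the root mean square difference of mean-centred log2 CPM, over 320 genes with at least 5 CPM. It was 0.027 for Hspd1, 0.040 for Itm2c and 0.048 for Cenpl, and the median gene lay at 0.152. Hspd1 encodes the mitochondrial chaperonin HSP60, and its level fell by 16.4%, from 1451 ± 44.0 to 1213 ± 19.6 CPM. Itm2c encodes a membrane protein of the BRICHOS family, and its level went from 97.1 ± 2.79 to 79.3 ± 1.39 CPM. Cenpl went from 30.9 ± 0.945 to 27.1 ± 1.31 CPM. In each of these genes, as in Mdm4, fl/fl replicate 4 was the lowest fl/fl library. The genes were picked for closeness to the values of Mdm4, so this shared feature comes with the choice. The values share their libraries and scaling factors, so likeness describes these 8 libraries. Hspd1 overlaps Hspe1 on the opposite strand, and its count is uncertain for that reason.

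**Figure D4:**
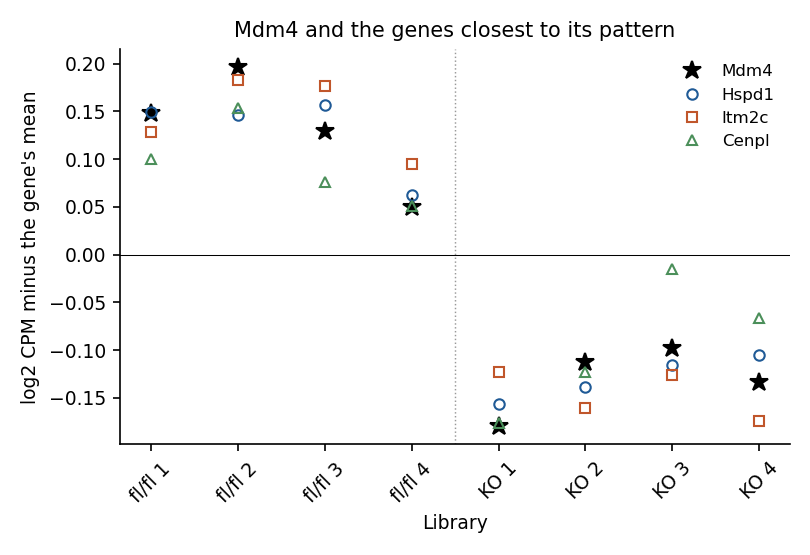
Log2 CPM minus the gene's own mean, for Mdm4 and the 3 genes closest to it in pattern, in each of the 8 libraries, with a dotted line between the genotypes. All fl/fl points are above 0 and all KO points below 0, and fl/fl replicate 4 is the lowest fl/fl library for each gene. The 3 genes were picked for closeness to these values of Mdm4.

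The place of fl/fl replicate 4 bears on the size of the change. Without it, the log2 fold change of Mdm4 was -0.29 (SE 0.027, edgeR adjusted p = 4.04e-25, over a range of 4.04e-25 to 1.79e-05 in the alternatives). With all libraries it was -0.26 (SE 0.030). The variance was estimated anew in each fit, so the size of an adjusted p cannot be compared between fits. Apart from fl/fl replicate 4, the fl/fl libraries lay between 164 and 172 CPM. Without this library, 191 of the 428 genes then tested passed, 95 higher and 96 lower. Beside that, 6 of the 12 pathway genes passed, 3 higher and 3 lower. The genes added were Cop1 and Ncl, both regulators and both lower in KO. Their changes stayed small. For Ncl the log2 fold change was -0.043 (SE 0.018), beside -0.046 (SE 0.021) with all libraries. For Cop1 it was -0.070 (SE 0.029), beside -0.063 (SE 0.031). Without it the log2 fold change was 0.28 for Atf3, 0.23 for Ercc5, 0.14 for Ptpn14 and -0.20 for Ier5. In the cell cycle list 9 of 11 genes then passed, and the log2 fold changes of Mcm3, Mcm6 and Cenpf were 0.23, 0.22 and -0.18.

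Some measures of the libraries moved with genotype. Unmapped reads made up 1.04% to 1.19% of reads in fl/fl and 1.44% to 1.58% in KO, and reads outside features 4.30% to 4.34% and 3.93% to 4.14%. The TMM scaling factors were 0.980 to 0.996 in fl/fl and 1.00 to 1.02 in KO. With no such factors the log2 fold change of Mdm4 was -0.23, and with upper-quartile scaling it was -0.21. The part of read quality in the result was not tested. The labels give no batch or date, and genotype and any batch split the same way cannot be told apart.

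**Figure D5:**
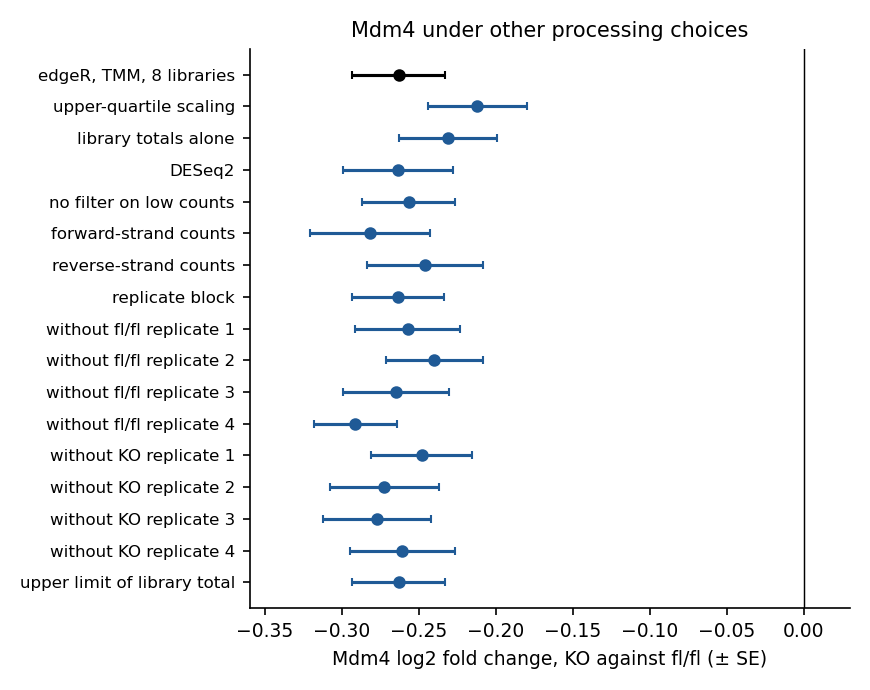
Log2 fold change of Mdm4 (KO against fl/fl, bars are 1 SE) as reported (black) and under each other choice of scaling, test, filter, count column, pairing, library total and set of libraries (blue). Values run from -0.29 without fl/fl replicate 4 to -0.21 with upper-quartile scaling.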

How the data were processed

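For each of the 8 libraries the authors deposited raw counts of reads per gene, in the STAR gene counter's layout, with an either-strand and 2 strand columns. Per the submitters' processing notes, STAR 2.7.10a, fastp and DESeq2 1.38.0 were used, with GRCm38 and GRCm39 both named. No source used here gives the annotation release. Per the labels' protocols, poly(A) libraries came from a stranded mRNA kit, but reverse-to-forward ratios were 0.985 to 1.02, so either-strand counts were used.

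An incomplete last line was dropped. Of the 1933 rows shared, 1830 had a symbol in GENCODE M21 (GRCm38), which also gave overlaps and lengths. The rows hold 3.20% to 3.28% of a library, so library size was derived from the summary counts (lower limit; the upper lay 2.51% to 2.65% higher).

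Counts were tested in R 4.3.3 with edgeR 4.0.16 (filterByExpr, TMM, robust quasi-likelihood F test, Benjamini-Hochberg over 420 genes, threshold 0.05). SE came from the F statistic. Chi-square tests found no library pair alike within sampling noise (largest p within a group 3.68e-07). Alternatives were DESeq2 1.42.0, other scalings, filters, columns, thresholds, a replicate block and leaving out each library.

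The genes and lists were chosen with earlier results of these data known. Named were Mdm4, every tested gene of the p53 lists, the 3 most abundant tested cell cycle genes and the 3 genes nearest to Mdm4 in pattern.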

Additional observations from a re-analysis of the deposited data

Results flagged for a closer look

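Within each group of 4 libraries, the extreme value is listed here where it stood off from its neighbour by more than 0.829 of the range. The rule was applied to 66 groups of values, from 30 genes and 3 measures of the libraries, in each genotype. The 30 genes are those given values in the report or counted in its cell cycle list, without the markers of other cell types. About 1 in 20 groups would be listed by chance. Mdm4 and the 12 p53 pathway genes had none. In fl/fl replicate 4, Mcm3 stood at 403 CPM, while replicates 1 to 3 had 371 to 376 CPM (0.836 of the range). Hspd1, also in fl/fl replicate 4, stood at 1385 CPM, and replicates 1 to 3 had 1469 to 1479 CPM (0.890 of the range). In fl/fl replicate 1, Sgo2a stood at 27.7 CPM, with 26.2 to 26.3 CPM in the others (0.941). In the same library, Cenpf stood at 191 CPM, with 183 to 184 CPM in the others (0.949). Gene-assigned reads were 19663030 in fl/fl replicate 1 and 17619387 to 17642249 in the others (0.989).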

How the results depend on the processing

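Mdm4 stayed lower in KO and past the threshold under all 17 alternatives, with a log2 fold change of -0.29 to -0.21, and leaving out each library in turn gave -0.29 to -0.24. The alternative with the upper limit of the library total was added after seeing the data. Genes changed, 158 as reported, ran from 108 (adjusted p under 0.01, 48 of them higher) to 191 (without fl/fl replicate 4). Upper-quartile scaling gave 120 higher and 52 lower. The p53 pathway count of 4 ran from 3 to 6. No likeness by replicate number was seen: same-number correlations were -0.093 to 0.103, and 0 of 4 fl/fl libraries matched their own number best. With 4 libraries per group this cannot show whether same-number libraries were handled together, which the labels do not say. With the replicate number as a block, 150 genes changed, Mdm4 had a log2 fold change of -0.26 (edgeR adjusted p = 9.98e-08), and the pathway count was 4. Directions reversed, all of them short of the threshold, for Parp1 (0.026 with upper-quartile scaling, 0.0070 with library totals alone, 0.027 with reverse-strand counts), Smyd2 (0.017 with upper-quartile scaling, and -0.071 to 0.013 when each library was left out, 0.013 being without KO replicate 2), Ncl (0.0050) and Slc19a2 (0.0042) with upper-quartile scaling, and Trp53bp2 (-0.048 with forward-strand counts). The cause was not tested. Depth limits the sparse genes: the change of Pik3c2b, near 3 CPM, has an SE of 0.14 on the log2 scale, that of Mdm4 0.030.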
